A study of Rattus norvegicus with 18 samples.

Results

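The regions described here are H3K4me3 peaks of middle width that lie beside another peak. A merged peak was a member when its width was at least 700 and under 2500 bp, it lay on chromosome 1 to 20 and had its nearest other peak, of any width, no more than 2000 bp away. Of the 16364 merged peaks, 1621 (9.91%) met this rule, which is 13.9% of the 11672 peaks of that width on these chromosomes. The rule used positions and no read count. Joined to their nearest peaks, the members form 1095 pairs, 566 in which both peaks are members and 529 in which the other peak is narrower or wider than the range. The question put to each pair was how its peaks differ in height and whether they change together.

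The mark was profiled by ChIP-seq in Schwann cells, the glia that wrap peripheral axons, taken as primary cells from rat, with 3 ChIP and 3 genomic input libraries in each of 3 groups. Control cells were untreated. The other groups received membrane-permeable cAMP for 30 min, which was then washed out, and were collected 30 min (below, 30 min) or 3.5 h (below, 3.5 h) after washout. The labels give the cAMP dose as 100 µM in one field and as 50 µM in another, and a second sequencing run is named for the third library at 30 min. They do not say whether libraries came from separate cultures, so the p-values below measure the spread between these libraries, which may be technical. No gene annotation of Rnor_6.0, the build of the files, was used here, and the cell type was not checked against marker genes.

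H3K4me3 is trimethylation of lysine 4 on the tail of histone H3. It is written by SET1 and MLL methyltransferases, erased by demethylases of the KDM5 family, and concentrated on nucleosomes around the start sites of active genes, most of all at CpG-rich promoters. The start site itself is often depleted of nucleosomes, so the mark commonly forms blocks on both sides of it. cAMP is a second messenger that carries signals from receptors at the cell surface into the cell.

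Gene names were linked to 8 members through the averages that the study tabled for genes it had chosen for their change in these libraries, so the link is no independent evidence of a direction. Of the 31 tabled genes, 28 have a RefSeq entry, and the linked peak lies on the chromosome of that entry for 28. Promoter windows were given for 4 of the 8 genes and are shown as the sequences tied to members by name. Each is the 250 bases before the start of transcription in RefSeq build GRCr8, on the strand of the gene, with CG dinucleotides, where DNA methylation occurs, in capitals.
Samd1: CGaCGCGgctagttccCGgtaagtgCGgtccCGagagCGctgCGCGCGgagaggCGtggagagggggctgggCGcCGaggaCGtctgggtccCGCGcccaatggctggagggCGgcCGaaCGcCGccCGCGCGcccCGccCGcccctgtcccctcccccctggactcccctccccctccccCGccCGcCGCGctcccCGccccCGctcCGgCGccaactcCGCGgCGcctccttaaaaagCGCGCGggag
Hist1h3b: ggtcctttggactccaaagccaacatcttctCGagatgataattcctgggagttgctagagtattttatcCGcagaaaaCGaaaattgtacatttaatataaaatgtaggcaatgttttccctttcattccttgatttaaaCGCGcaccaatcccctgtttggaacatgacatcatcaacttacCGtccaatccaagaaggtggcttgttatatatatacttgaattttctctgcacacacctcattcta
Slc25a23: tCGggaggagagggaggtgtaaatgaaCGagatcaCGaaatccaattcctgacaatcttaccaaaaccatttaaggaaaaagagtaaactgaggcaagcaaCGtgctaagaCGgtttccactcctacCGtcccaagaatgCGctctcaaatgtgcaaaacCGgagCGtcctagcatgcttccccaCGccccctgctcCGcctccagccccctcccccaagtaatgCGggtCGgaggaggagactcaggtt
Lrrc4: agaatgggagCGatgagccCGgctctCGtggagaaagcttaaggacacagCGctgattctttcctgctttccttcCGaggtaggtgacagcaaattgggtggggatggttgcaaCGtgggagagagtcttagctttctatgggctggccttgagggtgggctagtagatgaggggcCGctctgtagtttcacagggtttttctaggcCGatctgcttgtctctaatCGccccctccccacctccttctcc
The Samd1 window, the first of 2 listed for this gene, holds 39 CG dinucleotides, a number reached by 1.43% of the 33469 RefSeq rat windows of this length. The Slc25a23 window holds 13 (reached by 29.4% of windows), Lrrc4 holds 9 (38.5%) and Hist1h3b holds 6 (49.8%), against a median of 5. The letters TGACGTCA, the full cAMP response element, which reads the same on both strands, are in none of these 4 windows and in 1.59% of all windows. Where the windows lie relative to the peaks was not determined, since the builds differ.

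Most members sat very close to their neighbour (see the histogram of gaps). The gap ran from 22 to 1999 bp with a median of 398 bp, and the middle 50% of members lay between 192 and 946 bp. A gap of 101 to 200 bp was held by 394 members (24.3%), whereas 30 (1.85%) had a gap of 100 bp or less. At the limit of the rule, Peak_697 lay just inside with a gap of 1999 bp and Peak_7332 just outside with a gap of 2001 bp. Their control heights were 10.4 ± 0.506 and 4.28 ± 0.295 RCPM (SD, n = 3), where RCPM, the unit of height used throughout, is the number of reads per kb of peak per 1000000 reads in peaks of the library.

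**Figure D1:**
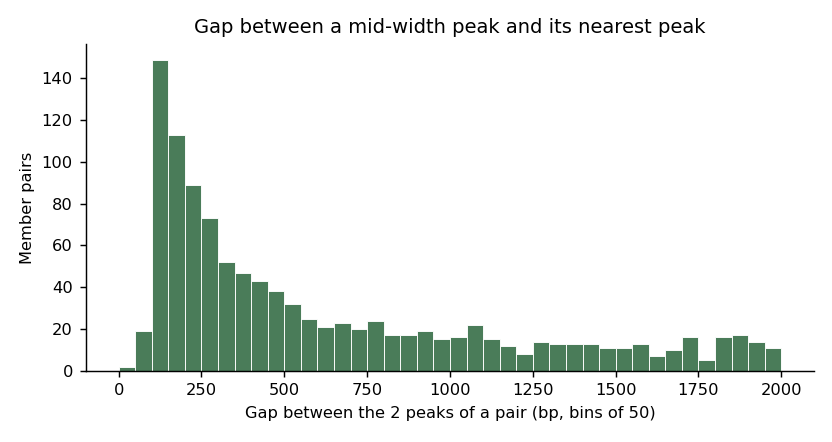
Number of member pairs (vertical axis) by the gap between their peaks, in bins of 50 bp (horizontal axis). The tallest bin, 101 to 150 bp, holds 149 pairs, and the counts decline from there towards the limit of 2000 bp.

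The median width of members was 1288 bp (range 700 to 2492 bp), against 1503 bp for the 10051 peaks of the same width range without a close neighbour. The neighbour was of middle width for 1092 members, under 700 bp for 249 and 2500 bp or wider for 280. For 1552 members the choice was mutual, each peak being the nearest of the other. Close peaks mostly came in pairs, as 931 runs of 2 peaks against 81 of 3, 11 of 4, 4 of 5 and 1 of 7, and 75 members had a close peak on both sides. The run of 7 covers chr1:131439869-131465921, with peaks 892, 5044, 638, 8570, 2276, 1180 and 3050 bp wide, of which 3 are members. Members made up 13.1% of the peaks of chromosome 17 and 4.34% of those of chromosome 11, the highest and lowest shares.

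Reads in peaks numbered 13762905 to 17160987 per ChIP library and 27344 to 835518 per input. Replicates were compared over the members by chi-square, which per degree of freedom came to 0.618 to 0.870 in control, where all pairs differed by less than sampling noise and were kept as 3 libraries, 1.20 to 1.54 at 30 min, and 1.84 to 4.94 at 3.5 h, highest between replicates 1 and 3. The share of aligned reads in peaks was 79.7% to 83.0% in control, 75.1% to 79.1% at 30 min and 79.1% to 88.5% at 3.5 h, lowest in 3.5 h replicate 1 within its group.

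Members were lower than other peaks of their width range in control cells. Their median height was 24.5, 24.4 and 24.5 RCPM in the control libraries (24.5 ± 0.0537, SD, n = 3), against 33.4 ± 0.136 RCPM for peaks of the same width range without a close neighbour. The lowest quartile of all peaks held 33.7% of the members and 21.3% of those other peaks, and the top quartile 20.7% and 27.3%. Single members ranged from 2.31 to 88.8 RCPM. Scaled to aligned reads, the median member stood 24.2-fold above the median input of 0.825 reads per kb per 1000000 in control. The median height was 25.4 ± 0.433 RCPM at 30 min and 24.3 ± 0.701 RCPM at 3.5 h.

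Within a pair the wider peak was usually the higher one (see the plot of heights within pairs). It was higher in 797 of 1095 pairs (72.8%), with a median of 35.3 RCPM against 15.5 RCPM for the narrower peak and a median log2 ratio of heights of 0.74. In the 7688 pairs of a middle-width peak and a nearest peak over 2000 bp away, called distant pairs below, the wider peak was higher in 66.8% and the median log2 ratio was 0.45. Close peaks were uneven, with 272 pairs (24.8%) over 4-fold apart in height and 521 (47.6%) within 2-fold, against 18.4% and 57.4% of the distant pairs. The Pearson correlation of the log2 heights was 0.16 over the 1095 member pairs and 0.18 over the distant pairs, all from the same libraries. These differences between member pairs and distant pairs were not tested.

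The width of the neighbour divided the members. Beside a neighbour under 700 bp, the median log2 ratio of a member to it was 1.06, 1.10 and 1.03 in the control libraries, and 194 of 249 members were the higher peak in all 3. Beside a neighbour of 2500 bp or more the ratio was -1.32, -1.28 and -1.28, and 228 of 280 members were the lower peak in all 3. Members stood at a median of 31.4 RCPM in the first case, with the neighbours at 10.9 RCPM, and at 14.3 RCPM in the second, with the neighbours at 38.4 RCPM. A member was thus mostly the higher peak beside a narrow neighbour and the lower one beside a wide one. The wider peak was also higher in 66.8% of the distant pairs, for which this split by neighbour width was not made.

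**Figure D2:**
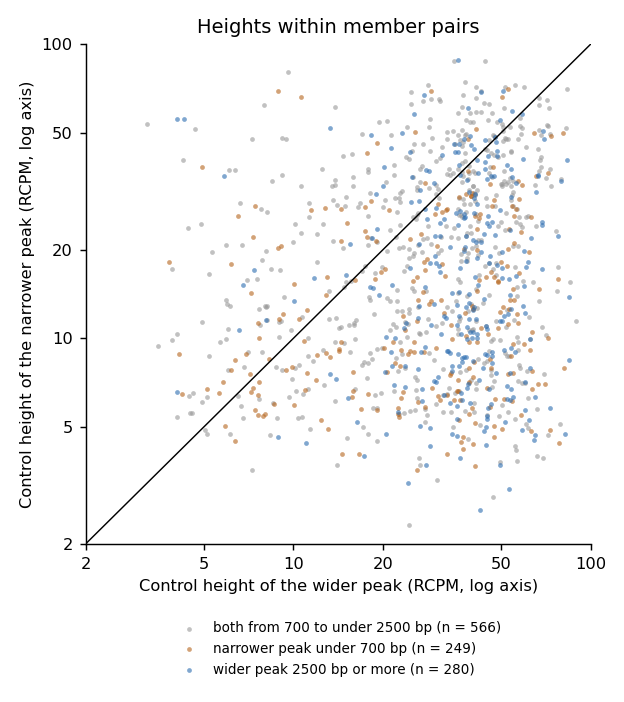
Mean control height of the wider peak (horizontal axis) and of the narrower peak (vertical axis) of each member pair, in RCPM on log axes. Points are pairs coloured by the width of the peaks, and the line marks equal heights. Most points, 797 of 1095, lie under the line, where the wider peak is the higher.

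The extreme pairs show how sharply the mark can drop between neighbours. Peak_4770 (chr2:149212837-149214924) had 78.7, 76.00 and 78.9 RCPM in control, and Peak_10785, 333 bp away and 389 bp wide, had 4.30, 4.81 and 4.08, a 17.7-fold difference. Peak_3954 and Peak_3955 on chromosome 16, 929 and 704 bp wide and 472 bp apart, had 68.9 ± 0.598 and 3.93 ± 0.195 RCPM (SD, n = 3). The order was reversed at Peak_9834 on chromosome 17, 2078 bp wide with 3.71, 2.90 and 3.02 RCPM, beside Peak_9833, 1523 bp wide with 53.3, 53.2 and 53.4 RCPM and 277 bp away. In these 3 pairs the higher peak stood above the lower one in every control library.

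Pairs with the smallest gaps were not alike either. At 22 bp, Peak_12683 (1270 bp wide) and Peak_6180 (649 bp) on chromosome 5 had 38.9 ± 0.509 and 5.51 ± 0.587 RCPM in control (SD, n = 3). Peak_4197 and Peak_9930 on chromosome 17, 48 bp apart, were nearly level at 28.4 ± 0.958 and 23.98 ± 1.97 RCPM. The pair with the highest summed height, Peak_1951 and Peak_13180 on chromosome 6 with a gap of 121 bp, had 83.3 ± 1.61 and 70.3 ± 0.799 RCPM and showed log2 changes of 0.03 (SE 0.03) and 0.01 (SE 0.03) at 3.5 h, neither past the test (edgeR adjusted p = 0.487 and 0.859).

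As a set, members held a nearly constant share of the reads in peaks. The share was 6.56%, 6.56% and 6.57% in control, 6.60%, 6.57% and 6.62% at 30 min and 6.57%, 6.57% and 6.52% at 3.5 h. Exact two-sided permutation tests gave p = 0.2 for 30 min against control, 0.8 for 3.5 h against control and 0.3 for 3.5 h against 30 min, where 3 against 3 libraries cannot go below 0.1. Of all aligned reads, members held 5.36% ± 0.115 in control, 5.05% ± 0.128 at 30 min and 5.56% ± 0.318 at 3.5 h (SD, n = 3). The 30 min libraries were all lower than the control and the 3.5 h libraries on this scale (exact permutation p = 0.1 for both), and their share of reads in peaks was also the lowest on average, whose part in this was not tested. In these bulk libraries, a weaker mark in every cell and a mark lost from some cells cannot be told apart.

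Changes of single peaks come from a quasi-likelihood test in edgeR over all 16364 peaks, and a peak is said to be called where the Benjamini-Hochberg adjusted p was under 0.05. At 30 min against control, 13 members were called lower and 17 higher, which is 0.802% and 1.05% of the members beside 0.281% and 0.532% of all peaks. The levels of the conditions did not overlap for 30 of the 30, nor for any of the 133 peaks called over the whole table. Loess scaling gave 11 lower and 8 higher, and DESeq2 called 1 lower. The count depended on the libraries: it was 285 with the 3.5 h libraries left out of the fit, 184 without 3.5 h replicate 1, 192 without 3.5 h replicate 3, and 1 to 8 without any other single library. Without control replicate 1, 2 or 3, 0 members were called lower.

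Many more members were called at 3.5 h. Against control, 319 were lower and 234 higher (19.7% and 14.4%), beside 17.8% and 13.7% of all peaks, and against 30 min 448 were lower and 281 higher (27.6% and 17.3%), beside 23.3% and 17.9%. The conditions did not overlap for 97.5% and 93.8% of the called members, beside 97.2% and 92.5% of all called peaks. These shares are near those of all peaks. With all aligned reads as the library size, the split turned to 193 lower and 274 higher against control and to 268 lower and 721 higher against 30 min, while the median change of all peaks moved to 0.07 and 0.16 (log2), so the directions given here are relative to the typical peak. The count against control fell to 300, 327 and 325 without control replicate 1, control replicate 2 and 3.5 h replicate 2.

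The changes went with height, in members as in all peaks. Ranked by mean height over all ChIP libraries, the lowest quartile of members, with a median of 7.54 RCPM, had a median log2 change of 0.20 at 30 min against control, -0.13 at 3.5 h against control and -0.31 at 3.5 h against 30 min. The top quartile, at 51.9 RCPM, had -0.05, 0.00 and 0.07. At 3.5 h against 30 min, 198 of the 406 lowest members were called lower and 16 higher, and 30 of the 405 highest lower and 161 higher. A like trend ran through the whole table. Of all peaks in the same ranges of height, 1084 of the 3039 lowest (35.7%) were called lower and 79 higher, and 10.2% of the 5228 highest lower and 36.0% higher. For the members the shares were 48.8% lower in the lowest range, and 7.41% lower and 39.8% higher in the highest. The median log2 changes of all these peaks were 0.19, -0.04 and -0.21 in the lowest range and -0.04, 0.01 and 0.05 in the highest, in the same order of comparisons. The share of reads outside peaks was largest at 30 min and smallest in 3.5 h replicates 2 and 3, and its part in these changes was not tested.

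Both peaks of a pair were called in some pairs, and a single one in many more, as among all nearest pairs (see the plot of changes within pairs). At 3.5 h against control, both were called in one direction in 101 of 1095 pairs, 69 lower and 32 higher, which is 9.22% beside 6.24% of all 10953 nearest pairs. Opposite calls were made in 39 pairs, 3.56% beside 4.11% of all nearest pairs. A single peak was called in 481 pairs and neither in 474, beside 4689 and 5131 of all 10953 nearest pairs. At 3.5 h against 30 min both peaks were called in one direction in 164 pairs (126 lower, 38 higher), 14.98% beside 10.2% of all nearest pairs. They were called in opposite directions in 78 pairs, 7.12% beside 7.79%. In this comparison a single peak was called in 511 pairs and neither in 342, beside 5125 and 3858 of all 10953 nearest pairs. The counts depended on single libraries. Against control, pairs in one direction numbered 39, 39 and 55 without control replicates 1, 2 and 3, and 162, 39 and 61 without 3.5 h replicates 1, 2 and 3, and pairs in opposite directions 11, 13, 24, 75, 15 and 20 in the same order. Against 30 min the numbers were 92 and 43 without 30 min replicate 1, 101 and 51 without 3.5 h replicate 2, and 109 and 40 without 3.5 h replicate 3.
At 30 min against control, edgeR called both peaks in 1 pair, in opposite directions, which is 0.0913% of member pairs beside 0.0183% of all nearest pairs. It called 0 pairs in one direction, both here and among all nearest pairs (0%). An unadjusted edgeR p under 0.05 in both peaks was found in 53 pairs with one direction and 34 with opposite directions, and DESeq2 called 0 and 0. The unadjusted pairs were not counted over all nearest pairs, so 53 and 34 have no background and are not read as co-change. Single peaks passed this threshold often, as 197 lower and 259 higher of the 1621 members and 1623 and 1881 of all 16364 peaks. Without 3.5 h replicate 1 or 3, edgeR called 10 and 11 pairs in one direction and 8 and 7 in opposite directions.

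**Figure D3:**
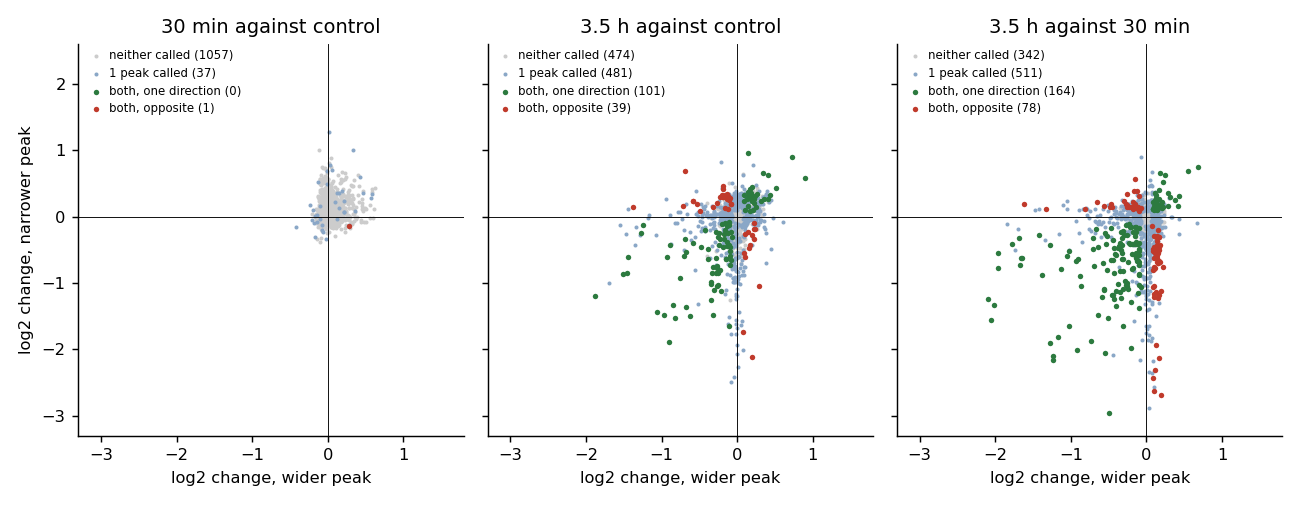
log2 change of the wider peak (horizontal axis) and of the narrower peak (vertical axis) of each of 1095 member pairs in 3 comparisons, fitted by edgeR. Points are pairs coloured by which peaks were called, with the counts in the keys. At 3.5 h the pairs called in one direction reach far into the lower left, and other narrower peaks fall along the vertical axis beside a wider peak near 0.

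Where both peaks were called, one direction was more frequent in member pairs than in distant pairs. It was the case in 101 of 140 member pairs (72.1%) and 58.3% of 753 distant pairs at 3.5 h against control, and in 164 of 242 (67.8%) and 54.1% of 1273 at 3.5 h against 30 min. Over all pairs, the log2 changes had one sign in 55.0%, 55.3% and 55.3% of member pairs for 30 min against control, 3.5 h against control and 3.5 h against 30 min, and in 53.0%, 52.7% and 52.2% of distant pairs. In distant pairs 2001 to 10000 bp apart the shares were 56.6%, 54.7% and 52.4%, the first of them above that of member pairs. The Pearson correlation of the changes was 0.16, 0.25 and 0.21 over 1095 member pairs and 0.07, 0.08 and 0.09 over 7688 distant pairs. Sites share libraries and depth, and the differences between these sets were not tested.
At 3.5 h against control, the correlation was 0.28 in 283 pairs with gaps up to 200 bp, 0.21 in 342 with 201 to 500 bp, 0.26 in 213 with 501 to 1000 bp and 0.23 in 257 with 1001 to 2000 bp. It was 0.17 in the 1513 distant pairs up to 10000 bp apart and 0.06 in the 3357 from 10001 to 50000 bp. Within 2000 bp, co-change thus showed no steady decline with distance.

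Neighbours also deviated together between replicates at 30 min and 3.5 h, and hardly in control. The deviations of single libraries from their condition mean correlated within member pairs with a Pearson coefficient of 0.06 in control, 0.23 at 30 min and 0.25 at 3.5 h, and within distant pairs with 0.03, 0.09 and 0.10. These coefficients pool the 3 libraries of a condition. Within member pairs, the deviations of single 3.5 h libraries correlated with coefficients of 0.08 to 0.19. The changes of 3.5 h replicates 1, 2 and 3 from the control mean correlated with 0.22, 0.27 and 0.23. Among pairs with at least 100 reads in both peaks in every library, the changes at 3.5 h against control had one sign in 50.9% and a correlation of 0.19.

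The balance within a pair was tested on the log2 ratio of reads in the wider to the narrower peak, per library, with limma over all 10953 nearest pairs. At 30 min against control the ratio changed in 9 member pairs (0.822%, beside 0.584% of all nearest pairs), and in 0 or 1 of them without any 1 control or 30 min library but 59 without 3.5 h replicate 1 or 3. At 3.5 h against control it changed in 370 pairs (33.8% beside 32.7%), in favour of the wider peak in 173 and of the narrower in 197, and in 190, 235 and 223 without control replicate 1, control replicate 2 and 3.5 h replicate 2. At 3.5 h against 30 min it changed in 462 (42.2% beside 38.3%), in favour of the wider peak in 275. The median log2 ratio over member pairs was 1.68, 1.65 and 1.65 in control, 1.59, 1.63 and 1.56 at 30 min and 1.63, 1.66 and 1.68 at 3.5 h. The 30 min libraries all lay below the control libraries (exact permutation p = 0.1), and the other comparisons gave p = 1.0 for 3.5 h against control and 0.2 for 3.5 h against 30 min in the same exact test.

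The lower peak of a pair carried most of the falls from 30 min to 3.5 h. By mean height, the lower peaks had a median of 216 reads per library and the higher ones 928. In this comparison 392 of the 1095 lower peaks were called lower and 94 higher, with a median log2 change of -0.10, and 242 of the higher peaks lower and 267 higher, with a median of 0.03. The lower peaks of distant pairs, with a median of 418 reads, showed the same order, as 27.5% were called lower and 10.003% higher, beside 35.8% and 8.58% in member pairs, and for the higher peaks the shares were 15.97% and 26.4% beside 22.1% and 24.4%. In the 78 pairs called in opposite directions, the lower peak was the one that fell in 67 (85.9% beside 85.98% of the 585 opposite distant pairs). Against control the opposite pairs were mixed, with the lower peak falling in 21 of 39 (53.8% beside 58.6% of distant pairs).

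The 3 largest rises at 30 min were in low peaks beside a higher neighbour that was not itself called. Peak_12742 (chr1:24188439-24189646) had 2.23, 2.81 and 3.60 RCPM in control, 7.67, 6.85 and 6.37 at 30 min and 2.88, 1.84 and 0.989 at 3.5 h, so that all 30 min libraries lay above all others. Its log2 change was 1.27 (SE 0.24, edgeR adjusted p = 0.0357) from control and -1.86 (SE 0.25, adjusted p = 0.000202) from 30 min to 3.5 h. The neighbour, Peak_1736, 596 bp away, kept 45.8 to 47.9 RCPM over the 9 libraries.
Peak_4626 (chr2:5580937-5581980) had 7.86, 8.96 and 9.26 RCPM in control, 15.9, 14.7 and 14.1 at 30 min and 7.42, 8.23 and 6.12 at 3.5 h, a log2 change of 0.77 (SE 0.11, edgeR adjusted p = 0.00891) from control. Peak_681, 85 bp away and 3069 bp wide, had 46.6 ± 0.309 RCPM in control and 47.7 ± 0.347 at 30 min (SD, n = 3), and the ratio of the pair changed by -0.74 (SE 0.13, limma adjusted p = 0.0241). Peak_5727 (chr4:62104926-62105808) rose from 4.36, 4.63 and 4.46 to 9.50, 8.78 and 8.79 RCPM and was at 4.16, 3.69 and 1.75 at 3.5 h (log2 change at 30 min 1.01, SE 0.20, edgeR adjusted p = 0.038). Its neighbour Peak_5726, 162 bp away, had 19.4, 19.9 and 18.00 RCPM in control, 23.4, 24.00 and 24.8 at 30 min, short of the test (adjusted p = 0.0573), and 28.2, 26.5 and 24.2 at 3.5 h, past it (log2 change 0.45, SE 0.07, adjusted p = 0.00102).
In control these 3 rising peaks had 2.36, 7.11 and 3.66 ChIP beside 0.618, 0.809 and 0.625 input reads per kb per 1000000 aligned. With 1 library left out, the edgeR adjusted p at 30 min ranged from 0.000908 to 0.218 for Peak_12742, 0.00116 to 0.0976 for Peak_4626 and 0.000824 to 0.218 for Peak_5727. Peak_12742 and Peak_5727 kept their calls only without 3.5 h replicate 1 or 3.

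Falls at 30 min were smaller and lay in the higher members, 6 of them in the third quartile by height (1.48%) and 7 in the top one (1.73%). The same held over the whole table. Of all peaks in these ranges of height, 13 (0.261%) and 31 (0.593%) were called lower, against 1 in each of the lower ranges. Peak_7050 (chr7:144012780-144013531) had 46.2, 48.4 and 46.3 RCPM in control and 39.6, 36.5 and 35.8 at 30 min, with no overlap and a log2 change of -0.34 (SE 0.06, edgeR adjusted p = 0.0187, 0.00261 to 0.15 with 1 library left out). Peak_2305, 148 bp away, had 50.8 ± 0.799 and 50.3 ± 1.04 RCPM (SD, n = 3), and the ratio of the pair changed by 0.32 (SE 0.05, limma adjusted p = 0.0221). The 1 pair with opposite calls was Peak_7458 (2803 bp) and Peak_2562 (2092 bp) on chromosome 9, 296 bp apart. Peak_7458 rose from 26.2, 25.1 and 25.2 to 31.8, 31.4 and 30.00 RCPM (log2 change 0.28, SE 0.05, edgeR adjusted p = 0.0237), and Peak_2562 fell from 58.7, 56.9 and 57.3 to 51.4, 54.1 and 52.5 (log2 change -0.13, SE 0.03, edgeR adjusted p = 0.0456). Left-out libraries moved these p-values to as much as 0.171 and 0.24, and Peak_2562 kept its call only without 3.5 h replicate 1 or 3.

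The 3 deepest falls at 3.5 h against control were in low peaks beside a higher neighbour that was not called lower. For Peak_3207, described with the opposite calls, the neighbour was called higher. Peak_9189 (chr14:45170988-45171865) had 6.87, 5.92 and 5.11 RCPM in control, 9.62, 6.53 and 5.70 at 30 min and 1.62, 1.03 and 1.04 at 3.5 h, the last on 22, 13 and 13 reads. The 3.5 h libraries lay below all others, with a log2 change of -2.27 (SE 0.28, edgeR adjusted p = 0.00025) from control, and 1.05 ChIP beside 0.252 input reads per kb per 1000000 aligned remained. Peak_9190, 200 bp away, had 30.1 ± 0.512 RCPM in control and 30.5 ± 1.67 at 3.5 h (SD, n = 3), and the ratio of the pair changed by 2.29 (SE 0.26, limma adjusted p = 0.000259).
Peak_12349 (chr4:181288089-181288902) fell from 5.18, 5.96 and 7.72 RCPM in control to 1.51, 1.70 and 1.29 at 3.5 h (log2 change -2.07, SE 0.22, edgeR adjusted p = 0.000114). Peak_1576, 221 bp away, stayed at 59.4 to 62.7 RCPM over the 9 libraries. Peak_15192 (chr10:55655158-55655956) had the deepest fall from 30 min to 3.5 h, from 11.2, 8.97 and 7.28 to 0.969, 1.82 and 0.967 RCPM (log2 change -2.88, SE 0.26, edgeR adjusted p = 1.83e-05), beside Peak_15191, 302 bp away, at 33.3 to 38.2 RCPM.

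**Figure D4:**
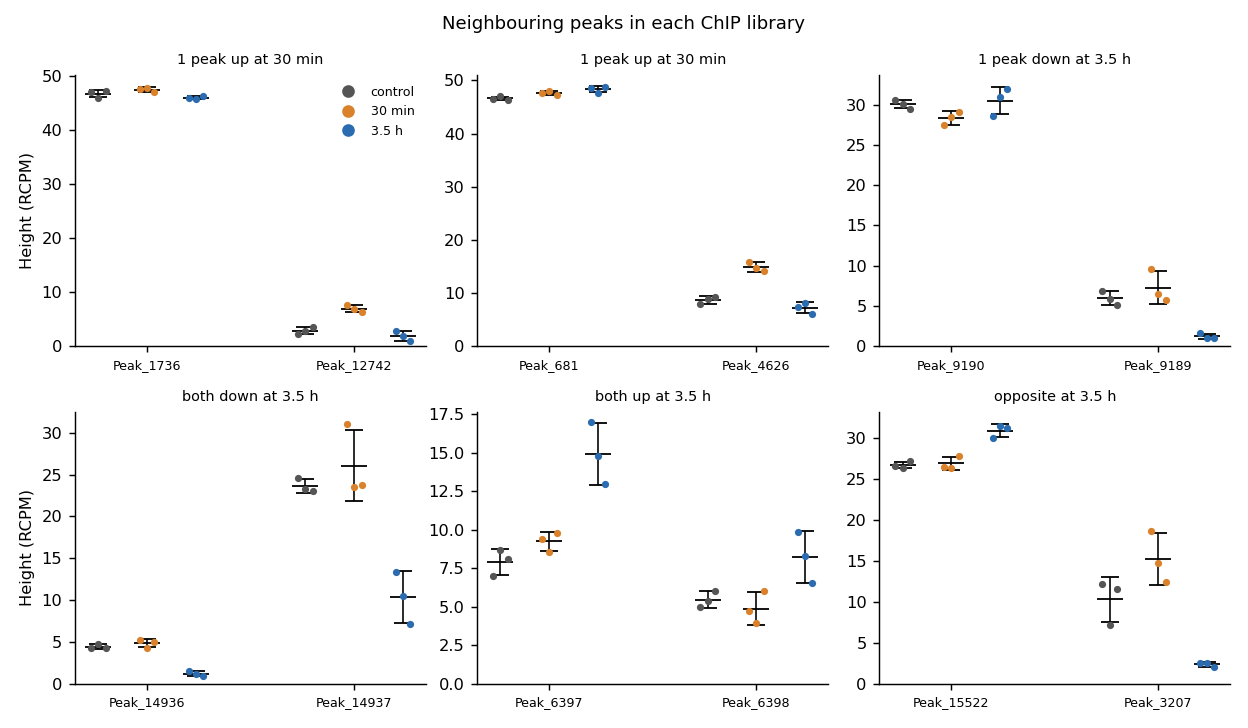
Height in RCPM (vertical axis) of both peaks of 6 member pairs in each ChIP library, with control, 30 min and 3.5 h in colour. Points are libraries, and bars are the mean and SD of 3. Peak_12742 and Peak_4626 stand higher at 30 min beside a level neighbour, Peak_9189 and Peak_3207 are lowest at 3.5 h, and Peak_14936 and Peak_14937 are both lowest at 3.5 h.

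In other pairs both peaks fell. Peak_14936 (chr1:280194251-280196165) had 4.25, 4.77 and 4.25 RCPM in control and 1.52, 1.12 and 0.954 at 3.5 h, and Peak_14937, 488 bp away, had 24.6, 23.3 and 23.1 and 13.4, 10.5 and 7.16. Neither overlapped between these conditions, and the log2 changes were -1.89 (SE 0.17, edgeR adjusted p = 3.17e-05) and -1.20 (SE 0.17, edgeR adjusted p = 0.000482). At 3.5 h Peak_14936 had 1.02 ChIP and 0.902 input reads per kb per 1000000 aligned, so it was near input, while Peak_14937 had 8.81 and 2.00.
Peak_1454 and Peak_12074 on chromosome 4, 180 bp apart, fell from 18.5, 17.1 and 17.3 to 11.5, 8.59 and 7.10 RCPM and from 8.69, 6.78 and 6.53 to 3.97, 2.45 and 1.44 RCPM (log2 changes -0.96 and -1.47, edgeR adjusted p = 0.000534 and 0.00125). From 30 min to 3.5 h, Peak_403 and Peak_9970 on chromosome 17, 178 bp apart, fell from 10.6, 11.6 and 11.6 to 6.91, 4.31 and 2.63 RCPM and from 16.3, 14.5 and 14.3 to 6.04, 3.49 and 2.49 RCPM (log2 changes -1.28 and -1.90, edgeR adjusted p = 0.0007 and 3.54e-05). In all 6 of these peaks 3.5 h replicate 1 was the highest and replicate 3 the lowest library of its group.

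Rises at 3.5 h were smaller. Peak_6397 (chr6:12364904-12365831) had 6.97, 8.66 and 8.11 RCPM in control and 17.00, 14.8 and 13.00 at 3.5 h, and Peak_6398, 124 bp away, had 4.99, 5.35 and 6.04 and 9.85, 8.32 and 6.51. Both rose without overlap, by log2 changes of 0.90 (SE 0.12, edgeR adjusted p = 0.000418) and 0.58 (SE 0.20, edgeR adjusted p = 0.0386), and their ratio did not pass the test (limma adjusted p = 0.16). Peak_5815 on chromosome 4 rose from 4.63, 5.03 and 5.19 to 11.00, 9.53 and 8.50 RCPM (log2 change 0.96, SE 0.14, edgeR adjusted p = 0.000685), and Peak_12148, 1368 bp away, rose less, from 61.5 ± 0.640 to 68.5 ± 1.53 RCPM (log2 change 0.14, SE 0.03, edgeR adjusted p = 0.00201). Peak_8624 on chromosome 12 rose from 6.18, 5.63 and 4.23 to 11.9, 8.92 and 7.82 RCPM (log2 change 0.83, SE 0.18, edgeR adjusted p = 0.00531), whereas Peak_8623, 283 bp away, had 8.78 ± 0.900 and 7.58 ± 2.26 RCPM, which did not pass (edgeR adjusted p = 0.377). As in the falling pairs, replicate 1 was the highest and replicate 3 the lowest 3.5 h library in Peak_6397, Peak_6398, Peak_5815, Peak_8624 and Peak_8623. Peak_12148 had the reverse order.

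Opposite calls at 3.5 h joined a small rise of the higher peak to a deep fall of the lower one in each of the 3 pairs with the largest change of ratio. Peak_15522 (chr10:103825625-103826625) rose from 26.6, 26.4 and 27.2 RCPM in control to 30.00, 31.5 and 31.3 at 3.5 h (log2 change 0.20, SE 0.05, edgeR adjusted p = 0.011). Peak_3207, 178 bp away, fell from 12.2, 7.18 and 11.6 to 2.57, 2.56 and 2.00 RCPM (log2 change -2.12, SE 0.26, edgeR adjusted p = 0.000245), and the ratio changed by 2.28 (SE 0.23, limma adjusted p = 0.000202). At Peak_9529 and Peak_9530 on chromosome 15, 1155 bp apart, the log2 changes were 0.08 (SE 0.02, edgeR adjusted p = 0.0159, up to 0.0842 with 1 library left out) and -1.73 (SE 0.23, edgeR adjusted p = 0.000332). At Peak_5955 and Peak_12379 on chromosome 5, 389 bp apart, they were 0.14 (SE 0.05, edgeR adjusted p = 0.0489, up to 0.234 with 1 library left out) and -1.38 (SE 0.16, edgeR adjusted p = 0.000185). DESeq2 did not call the rises of Peak_15522, Peak_9529 and Peak_5955.

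Of the 8 gene-linked members, 3 lie on chromosome 17 (see the plot of gene-linked members). Hist1h3b, a gene for histone H3, the protein that carries this mark, was linked to Peak_4211 (chr17:44839563-44840288), with 45.5, 46.00 and 45.6 RCPM in control, 39.7, 38.6 and 38.7 at 30 min and 45.8, 47.4 and 45.1 at 3.5 h. The 30 min libraries lay below all others, with a log2 change of -0.23 (SE 0.05, edgeR adjusted p = 0.0382) from control and 0.23 (SE 0.05, edgeR adjusted p = 0.00172) from 30 min to 3.5 h. Its neighbour Peak_4212, 496 bp away, had 34.9 ± 1.19 RCPM in control and 33.5 ± 0.0905 at 30 min (SD, n = 3), which did not pass (edgeR adjusted p = 0.313), nor did the ratio (limma adjusted p = 0.135).
Hist1h1d, a gene for a linker histone H1, was linked to Peak_382 (chr17:43734080-43735704), with 38.9, 39.00 and 38.5 RCPM in control, 33.6, 32.9 and 34.00 at 30 min and 38.2, 39.00 and 35.2 at 3.5 h, a log2 change of -0.21 (SE 0.04, edgeR adjusted p = 0.0187) at 30 min. Its neighbour Peak_383, 109 bp away and 580 bp wide, had 7.90 ± 1.09, 7.66 ± 1.29 and 4.75 ± 0.570 RCPM in the 3 conditions, and its fall at 3.5 h against control passed the test (log2 change -0.74, SE 0.18, edgeR adjusted p = 0.00992).
LOC684762 was linked to Peak_9936 (chr17:43806917-43807660), the called member with the deepest fall at 30 min, from 34.9, 37.6 and 34.4 to 27.3, 26.1 and 26.8 RCPM (log2 change -0.42, SE 0.07, edgeR adjusted p = 0.0172), and it stood at 34.00, 38.9 and 35.2 at 3.5 h. Its neighbour Peak_4202, 847 bp away, had 37.5 ± 0.754 RCPM in control and 33.8 ± 0.472 at 30 min, short of the test (edgeR adjusted p = 0.144). With 1 library left out, the adjusted p at 30 min reached 0.202 for Peak_4211 and 0.144 for Peak_9936, and the calls were kept only with 3.5 h replicate 1 or 3 left out for the first and with any 1 of the 3.5 h replicates left out for the second.

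**Figure D5:**
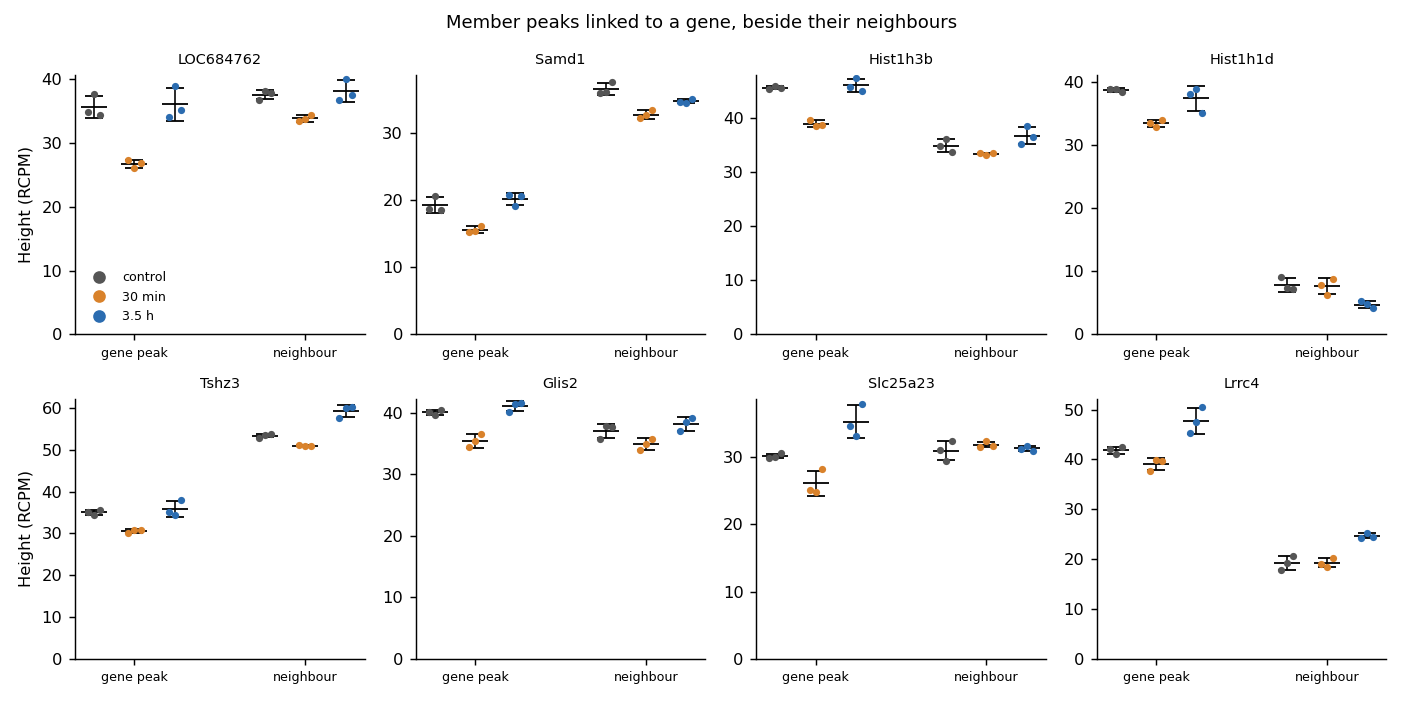
Height in RCPM (vertical axis) of the 8 gene-linked members and their neighbours in each ChIP library, with control, 30 min and 3.5 h in colour. Points are libraries, and bars are the mean and SD of 3. The 30 min points of each gene-linked peak lie below its control points, and the study chose these genes for their change in these libraries.

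Samd1, a protein that binds unmethylated CpG-rich DNA, was linked to Peak_10382 (chr19:25118477-25119535). It had 18.7, 20.7 and 18.5 RCPM in control, 15.2, 15.4 and 16.2 at 30 min and 20.8, 19.1 and 20.6 at 3.5 h. The 30 min libraries lay below all others, but the log2 change of -0.31 (SE 0.07) from control did not pass (edgeR adjusted p = 0.066), whereas that of 0.36 (SE 0.07) from 30 min to 3.5 h did (edgeR adjusted p = 0.002). Its neighbour Peak_4499, 1102 bp away and also a member, had 36.00, 36.1 and 37.6 RCPM in control and 32.2, 32.7 and 33.4 at 30 min, and its log2 change of -0.16 (SE 0.03) passed (edgeR adjusted p = 0.0456). Both peaks were lower in every 30 min library than in every control library, and their ratio did not pass the test (limma adjusted p = 0.313).
Glis2, a Krüppel-like zinc finger transcription factor, was linked to Peak_14974 on chromosome 10, with 40.1 ± 0.457 RCPM in control, 35.5 ± 1.11 at 30 min and 41.1 ± 0.812 at 3.5 h (log2 change at 30 min -0.18, SE 0.03, edgeR adjusted p = 0.0124). Peak_14975, 156 bp away, had 37.1 ± 1.12, 34.9 ± 0.988 and 38.2 ± 1.12 RCPM. Tshz3, a zinc finger homeobox transcription factor, was linked to Peak_9890 on chromosome 1, with 35.03 ± 0.545, 30.5 ± 0.416 and 35.8 ± 1.88 RCPM (log2 change at 30 min -0.20, SE 0.04, edgeR adjusted p = 0.0382). Its higher neighbour Peak_4180, 727 bp away, had 53.4 ± 0.398, 50.95 ± 0.142 and 59.3 ± 1.37 RCPM and rose at 3.5 h against control (log2 change 0.14, SE 0.02, edgeR adjusted p = 0.00141). With control replicate 1, 2 or 3 left out, 0 members were called lower at 30 min. The falls of Peak_382, Peak_4499, Peak_14974 and Peak_9890 thus did not pass in those fits.

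The remaining linked members rose at 3.5 h. Slc25a23, a mitochondrial carrier of ATP-Mg and phosphate, was linked to Peak_7421 (chr9:9987934-9988905), with 29.9, 30.1 and 30.6 RCPM in control, 25.2, 24.8 and 28.3 at 30 min and 34.6, 33.2 and 38.00 at 3.5 h. Its log2 change was 0.21 (SE 0.06, edgeR adjusted p = 0.0231) from control and 0.43 (SE 0.06, edgeR adjusted p = 0.000363) from 30 min. Peak_14294, 279 bp away and of like height in control, stayed at 29.5 to 32.4 RCPM over the 9 libraries, and the ratio changed by 0.46 (SE 0.08, limma adjusted p = 0.000923) from 30 min to 3.5 h.
Lrrc4, an adhesion protein of synapses, was linked to Peak_5704 (chr4:56113754-56115586), with 42.00, 41.00 and 42.4 RCPM in control, 37.7, 39.8 and 39.7 at 30 min and 45.3, 47.5 and 50.5 at 3.5 h. Peak_5705, 237 bp away, had 17.8, 19.2 and 20.6 RCPM in control, 19.00, 18.5 and 20.3 at 30 min and 24.3, 25.2 and 24.5 at 3.5 h. Both rose against control, by 0.18 (SE 0.04, edgeR adjusted p = 0.00457) and 0.35 (SE 0.07, edgeR adjusted p = 0.004) on the log2 scale, the 3.5 h libraries lay above all control libraries in both, and their ratio did not pass the test (limma adjusted p = 0.116).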

How the data were processed

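The authors trimmed the reads with Trim Galore and, by the paper, aligned them to Rnor_6.0 with BWA. The processing tools listed with the samples name STAR, another aligner, as well as BWA. Only uniquely placed reads were kept, each once (SAMtools, Picard). Narrow peaks came from MACS2 and the Irreproducible Discovery Rate, were merged over treatments, and had their reads quantified by HTSeq-count. Each deposited number is thus an unnormalised read count, 1 per peak and library (raw counts). Calling and merging set where a peak ends, and therefore the gaps and widths. The HTSeq classes of unassigned reads, 11.5% to 24.9% of the ChIP reads, entered only the scaling to aligned reads. The merged peaks include 37 on scaffolds.

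The counts of all 9 ChIP libraries were fitted with edgeR 4.0.16 in R 4.3.3 (quasi-likelihood, TMM, condition only). filterByExpr removed no peak, so all 1621 members were tested. Log2 ratios of nearest peaks, with 0.5 added to each count, were fitted with limma 3.58.1, adjusted by Benjamini-Hochberg over all pairs. Both were tested on simulated data with 200 peaks changed by 0.5 (log2) at 30 min against control: edgeR recovered 191 with 7 false calls over 16364 peaks, and limma 269 of 303 changed ratios with 14 false calls over 10953 pairs. The simulation used the same spread for all peaks and conditions, whereas the real replicates varied more at 3.5 h than in control. Smaller changes, such as the falls described at 30 min, were not simulated. These rates therefore need not hold for the real libraries. Python 3.11.15, numpy 2.4.6, pandas 2.3.3, scipy 1.17.1 and matplotlib 3.10.9 gave the remaining values.

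The members and lists were chosen with earlier results of these data known. Peaks named in the text were, per comparison, the 3 largest falls and 3 largest rises among called members whose conditions did not overlap, up to 3 pairs called in one direction and up to 3 in opposite directions. Added to them were pairs with the smallest gaps, the highest summed heights and the largest and smallest height ratios, and members linked to tabled genes. Not all of these are described. For the gene link, the RCPM averages of the nearest peak differed from the tabled ones by at most 0.132%, and the next peak was at least 14.2 times further off. Alternatives were other scalings, DESeq2 1.42.0, filters, pseudocounts, thresholds, gaps, subsets of libraries, a replicate block and each library left out.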

Additional observations from a re-analysis of the deposited data

How the results depend on the processing

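The majority of member calls turned from lower to higher at 3.5 h with aligned reads as library size (319 lower and 234 higher became 193 and 274 against control, 448 and 281 became 268 and 721 against 30 min), and from higher to lower at 30 min with loess (13 lower and 17 higher became 11 and 8). Changes were recomputed for the largest falls and rises and for the named pairs called in one or in opposite directions, each in its own comparison. None of these reversed. Members named only for a gene link, and neighbours named only beside another peak, were not among them. Member calls moved from 30 to 17 with aligned reads as library size, 19 with loess, 1 with DESeq2, 285 with only the compared conditions and 2 at an adjusted p of 0.01 at 30 min against control, from 553 to 349 (DESeq2) and 250 (0.01) at 3.5 h against control, and from 729 to 434 (0.01) at 3.5 h against 30 min. Pairs called in one direction moved at 30 min from 0 to 1 (loess) and 28 (compared conditions), at 3.5 h against control from 101 to 58 (DESeq2) and 28 (0.01), and against 30 min from 164 to 269 (aligned reads) and 85 (0.01). Opposite pairs moved from 1 to 0 (aligned reads, loess, DESeq2, 0.01) and 13 (compared conditions), from 39 to 16 (aligned reads), 12 (DESeq2) and 8 (0.01), and from 78 to 128, 39 and 25. Changed ratios moved from 9 to 131 with the compared conditions at 30 min. The share of one sign became 57.5% (loess) at 30 min, 59.7% (aligned reads) and 50.9% (pairs with at least 100 reads) at 3.5 h against control, and 62.2% (aligned reads) and 57.3% (loess) against 30 min, and with at least 100 reads the correlations at 3.5 h became 0.19 and 0.13. The members' share of reads was 5.36%, 5.05% and 5.56% of aligned reads, and 5.12%, 5.13% and 5.10% with gaps up to 1000 bp. The wider peak was higher in 73.0% of pairs with gaps up to 1000 bp, 72.1% at 30 min and 71.2% at 3.5 h, and the log2 height ratio became 0.79 less input. The causes of these moves were not tested.

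With 1 library left out, member calls ranged over 1 to 192, 300 to 717 and 513 to 865 in the 3 comparisons, pairs in one direction 0 to 11, 39 to 162 and 92 to 223, opposite pairs 0 to 8, 11 to 75 and 40 to 116, and changed ratios 0 to 59, 190 to 500 and 324 to 551. The share of one sign ranged over 53.8% to 57.2%, 54.2% to 58.5% and 52.8% to 56.6%, and the correlations 0.12 to 0.20, 0.23 to 0.25 and 0.20 to 0.22. The share of reads ranged over 6.56% to 6.57%, 6.58% to 6.61% and 6.54% to 6.57%, the log2 height ratio 0.73 to 0.75 and the pairs with the wider peak higher 72.6% to 72.7%. The single-peak results recomputed for the peaks listed above were counted over all alternatives, those with a library left out among them. Of these results, 660 kept their side of the threshold and 85 lost it. Results for which an alternative gave no adjusted p were left out of these counts.

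Libraries with the same replicate number correlated over 0.1 in their deviations in 4 of 9 pairs, and 4 of 9 libraries correlated best with their own number, so the numbers were not taken to pair the samples. A replicate block gave 45, 594 and 741 member calls, 2, 113 and 168 pairs in one direction, 1, 42 and 82 opposite pairs and 11, 378 and 457 changed ratios.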
